A study of Mus musculus with 24 samples.

Results

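The genes described here are 10 that mark cardiac fibroblasts in their resting state: Pdgfra, Tcf21, Gsn, Pi16, Dpt, Scara5, Abca8a, Cd248, Mgp and Smoc2. They were taken by name, as the array probes whose accession belongs to one of these mouse genes. The genes were chosen with earlier results of these data known. All 10 were found, with 16 probes between them, and all 10 were among the 15875 genes tested. Messenger RNA was measured on 24 one-colour Agilent arrays of heart tissue from male C57BL6/J mice, 4 arrays in each of 6 groups; an age is not among the labels. In all groups the left anterior descending coronary artery had been closed with a snare for 45 min and reopened, and tissue at risk from the anterior wall was taken after 24, 48 or 168 h of reperfusion. The IGF1 groups (insulin-like growth factor 1, a hormone that promotes growth and survival of cells) received 40 ng/g recombinant IGF1 under the skin as reperfusion began and 1 µg/g per day from an osmotic pump, which ended after 3 days at the latest. The vehicle groups received PBS with 0.1% BSA. Their labels give 45 min of ischemia, while the text on the design of the series mentions sham operations as controls; here the vehicle hearts are taken as infarcted, as labelled.

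Cardiac fibroblasts are the cells that make and maintain the collagen scaffold between heart muscle cells. In the uninjured heart they divide little and carry a set of transcripts for surface receptors, thin matrix proteins and the transcription factor Tcf21. After an infarct, many fibroblasts die or become activated, when they divide, migrate and make large amounts of collagen and periostin, and later some of them settle into a quieter scar-maintaining state. In bulk tissue such as this, fewer cells of a type and less RNA per cell cannot be told apart.

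The 10 genes play different parts in these cells. Tcf21 (NCBI gene 21412) encodes a basic helix-loop-helix transcription factor that is needed for the formation of cardiac fibroblasts. Pdgfra (18595) is the alpha receptor for platelet-derived growth factors, Cd248 (70445) is the surface glycoprotein endosialin, and Scara5 (71145) is a scavenger receptor that takes up ferritin. Dpt (56429, dermatopontin), Mgp (17313, matrix Gla protein, an inhibitor of calcification) and Smoc2 (64074, a calcium-binding matricellular protein) are secreted into the matrix. Pi16 (74116, peptidase inhibitor 16) and Dpt mark a fibroblast population shared by many organs. Gsn (227753, gelsolin) cuts and caps actin filaments, and Abca8a (217258) is a membrane transporter of the ABC family.

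Promoter windows of 6 of the 10 genes were present in the RefSeq promoter table (build GRCm38.p6); Scara5, Cd248, Mgp and Smoc2 had no entry. Shown are the 250 bases upstream of the annotated start, 5′ to 3′, for Pi16, Dpt and Pdgfra. The RNA of Pi16 and Dpt rose most with time in vehicle hearts, and the brightest Pdgfra probe passed the test in no comparison. Capitals mark the E-box, CANNTG on either strand, the sequence class to which proteins of the family of Tcf21 bind.
Dpt, chr1:164796413-164796662, plus strand: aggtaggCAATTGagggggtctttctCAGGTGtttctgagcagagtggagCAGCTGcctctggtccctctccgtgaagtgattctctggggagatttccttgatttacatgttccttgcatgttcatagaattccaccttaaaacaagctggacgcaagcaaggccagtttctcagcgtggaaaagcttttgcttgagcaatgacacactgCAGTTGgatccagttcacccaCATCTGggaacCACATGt
Pi16, chr17:29318632-29318881, plus strand: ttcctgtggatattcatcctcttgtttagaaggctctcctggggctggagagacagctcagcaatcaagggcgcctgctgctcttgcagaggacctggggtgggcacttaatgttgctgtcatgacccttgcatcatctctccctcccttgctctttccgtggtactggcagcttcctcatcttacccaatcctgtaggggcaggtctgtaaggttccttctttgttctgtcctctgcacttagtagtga
Pdgfra, chr5:75152001-75152250, plus strand: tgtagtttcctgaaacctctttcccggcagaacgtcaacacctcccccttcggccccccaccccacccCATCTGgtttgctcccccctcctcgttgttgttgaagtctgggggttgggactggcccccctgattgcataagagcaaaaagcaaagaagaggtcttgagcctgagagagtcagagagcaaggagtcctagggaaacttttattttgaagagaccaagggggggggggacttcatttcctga
The Dpt window held 6 E-boxes, the Pdgfra window 1 and the Pi16 window 0. Of all 32851 windows of this length in the table, 66.2% held at least 1 E-box, so its presence does not set these genes apart. The form CAGCTG was found in 13% of all windows and once in the Dpt window, and CATCTG in 14.4% of all windows and once each in the windows of Dpt and Pdgfra. Among the others, Abca8a had 3 E-boxes, the 3 annotated Gsn starts had 1, 2 and 2, and Tcf21 itself had 0. An AP-1 site (TGANTCA, 6.75% of all windows) and a FoxO site (TGTTTAC, 3.17%) were found in 0 of the 8 member windows. A match here is a description of the letters and not evidence of binding.

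A level is the log2 signal minus that of the 75th percentile of all spots on the same array, so that 0 equals that percentile, and differences are differences of such log2 levels. Per array, 52.7 to 62.9% of spots exceeded background clearly, and within groups the arrays had a Pearson r of 0.983 to 0.993 over genes, which are not independent replicates. The 9 cardiomyocyte markers, which define the labelled tissue, were well above background on all 24 arrays. The arrays lay on 4 slides, of which slides 1 and 2 were scanned on the first of 2 days and slides 3 and 4 on the second. At 24 h each slide held 1 array of each treatment, and the 168 h and 48 h arrays of IGF1 hearts shared 0 slides. At 168 h, replicates 1 to 3 of both treatments lay on slide 1 and replicate 4 on slide 4, so the scan days were not evenly spread over the times. The labels do not name the animals, so the p-values measure only the spread between these samples. A gene is said to have risen or fallen where the adjusted p of the fit across all 15875 genes was below 0.05.

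Before the comparisons, 1 array has to be named. In the IGF1 group at 24 h, replicate 4 had the lowest level of its group for 8 of the 10 genes, and replicate 1 the highest for 7. In the vehicle group at 24 h, replicate 3 was lowest for 8 genes and replicate 1 highest for 8. Where leaving out 1 of these arrays ends or adds a call, the value without it is given.

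**Figure D1:**
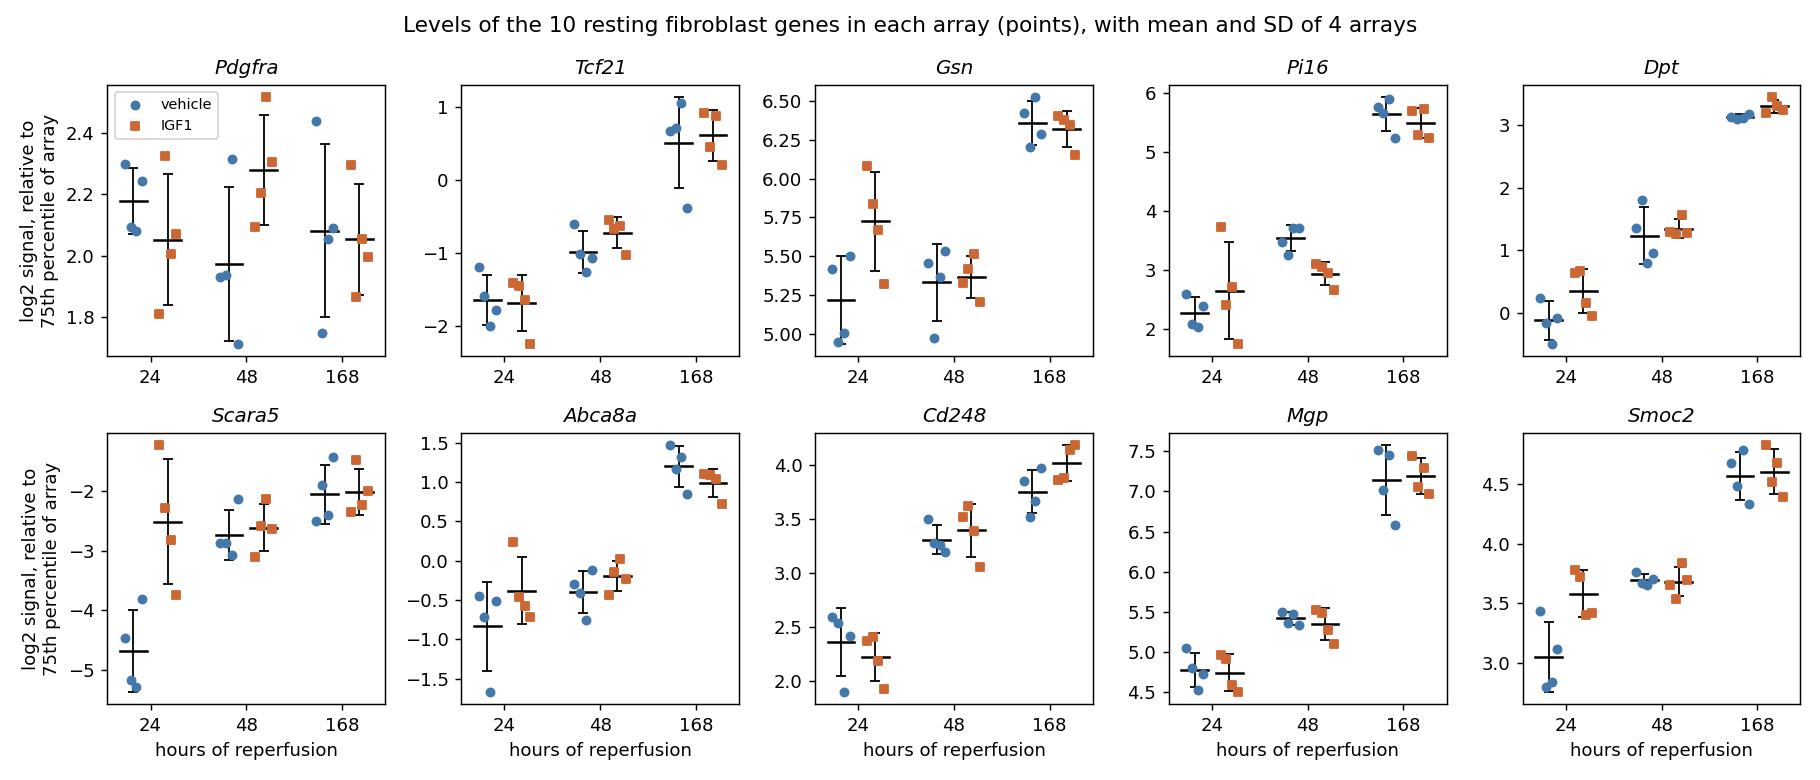
Log2 level (as defined above) of each of the 10 genes on the y axis against hours of reperfusion (24, 48 and 168, evenly spaced) on the x axis; each point is 1 array (circles vehicle, squares IGF1), and the lines and bars are the mean and SD of 4 arrays. Except for Pdgfra, the means at 168 h lie above all earlier ones, and Scara5 at 24 h shows the widest gap between treatments.

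The first question is how the genes changed over the week after infarction in vehicle hearts. From 24 to 168 h, 9 of the 10 genes rose and 0 fell, with a median log2 difference of 2.09; of all genes tested, 29.2% rose and 31% fell, 60.2% together, and the median difference of all genes was -0.01. The largest rises were those of Pi16 (10.3-fold) and Dpt (9.49-fold), followed by Mgp (5.16-fold), Tcf21 (4.42-fold), Abca8a (4.09-fold), Smoc2 (2.85-fold), Cd248 (2.61-fold) and Gsn (2.20-fold). Scara5 rose by 2.64 on the log2 scale, which has no firm place in this order, since 1 of its 4 vehicle arrays at 24 h was well above background and the difference was 1.20 with normexp background correction. For all 9, each of the 4 arrays at 168 h lay above each of the 4 at 24 h, a separation found in this direction for 24.6% of all genes. Pdgfra did not pass the test, with a log2 difference of -0.10 (95% confidence interval -0.40 to 0.20).

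The matrix proteins showed the plainest course. Dpt, which binds collagen fibrils, was at 0.25, -0.16, -0.49 and -0.07 on the 4 vehicle arrays at 24 h, at 1.36, 1.81, 0.80 and 0.96 at 48 h and at 3.13, 3.09, 3.11 and 3.18 at 168 h. The 3 groups did not overlap, and the 168 h arrays differed by less than those of any other group of vehicle hearts. The log2 rise was 1.35 ± 0.19 (SE) from 24 to 48 h (adjusted p = 5.96e-05) and 1.90 ± 0.19 from 48 to 168 h (adjusted p = 7.03e-08). Mgp, which keeps calcium salts from precipitating in vessel walls and matrix, had means of 4.78 ± 0.22 (SD, n = 4), 5.42 ± 0.08 and 7.14 ± 0.43 at the 3 times. Its smaller step came first, a log2 rise of 0.65 ± 0.17 to 48 h (adjusted p = 0.0103), and the larger one of 1.72 ± 0.17 followed (adjusted p = 8.08e-08). Smoc2 had means of 3.05 ± 0.29, 3.70 ± 0.05 and 4.56 ± 0.20 and rose at both steps, by 0.65 ± 0.13 (adjusted p = 0.00171) and 0.87 ± 0.13 (adjusted p = 1.48e-05).

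Pi16 was at 2.59, 2.08, 2.02 and 2.39 at 24 h, at 3.47, 3.25, 3.71 and 3.71 at 48 h and at 5.76, 5.65, 5.89 and 5.23 at 168 h in vehicle hearts. The times were fully separated, and the rise continued across both steps, by 1.27 ± 0.27 (adjusted p = 0.00247) and 2.10 ± 0.27 (adjusted p = 2.26e-06). Gelsolin differed from it in timing. Gsn levels of 5.42, 4.95, 5.01 and 5.50 at 24 h and 5.45, 4.98, 5.37 and 5.53 at 48 h overlapped, with a log2 difference of 0.12 ± 0.15 (adjusted p = 0.631). Only the 168 h arrays, at 6.42, 6.20, 6.52 and 6.29, lay above both, a rise of 1.02 ± 0.15 from 48 h (adjusted p = 1.06e-05).

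Tcf21, the transcription factor of the group, was below the 75th percentile of every vehicle array at 24 and 48 h and above it on 3 of 4 arrays at 168 h. Its levels were -1.19, -1.58, -1.99 and -1.78 at 24 h, -0.60, -1.01, -1.26 and -1.07 at 48 h and 0.66, 0.71, 1.05 and -0.38 at 168 h. The fourth 168 h array, which is the one on slide 4, was lower than the other 3 but still above every 48 h array. From 24 to 48 h the difference of 0.65 ± 0.26 did not pass the test (adjusted p = 0.0764), and it did so with the slide as a fixed block (0.73), with the replicate number as a block (adjusted p = 0.0179) and without vehicle replicate 1 of 24 h (0.80, adjusted p = 0.0441). From 48 to 168 h Tcf21 rose by 1.49 ± 0.26 (adjusted p = 6.31e-05). The ABC transporter Abca8a had a like course, with 0.44 ± 0.23 from 24 to 48 h (adjusted p = 0.187). A rise of 1.59 ± 0.23 followed (adjusted p = 8.54e-06). Its difference in the first step passed the test with the slide as a fixed block (0.60) and with the mean of both probes (0.72, adjusted p = 0.037). The dimmer Abca8a probe alone gave 0.99 ± 0.32 (adjusted p over probes = 0.0384), so the probes disagree on that call.

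The 3 surface receptors are taken last. Cd248, also found on pericytes, made its larger step early, with a rise of 0.94 ± 0.15 from 24 to 48 h (adjusted p = 0.000252) and of 0.44 ± 0.15 from 48 to 168 h (adjusted p = 0.0186); the second call was lost with median scaling, with array weights and without the slide 4 array at 168 h (0.37). Scara5, the ferritin receptor, was well above background on 1 of 4 vehicle arrays at 24 h and on all 4 at 48 and at 168 h. Its levels were -4.46, -5.17, -5.30 and -3.82 at 24 h, -2.86, -2.87, -3.07 and -2.12 at 48 h and -2.50, -1.89, -2.39 and -1.42 at 168 h. The 24 h arrays lay below all later ones, and the 48 and 168 h arrays overlapped. It rose by 1.96 ± 0.41 from 24 to 48 h (adjusted p = 0.00221). The rise was 0.78 with normexp background correction and 1.22 with the mean of both probes, and both passed the test. The second probe alone was well above background on 0 vehicle arrays at 24 and 48 h. It gave 0.48 ± 0.45 (adjusted p over probes = 0.522). On the brighter probe, the further 0.68 ± 0.41 to 168 h did not pass the test (adjusted p = 0.177).

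Pdgfra passed the test in none of the 10 comparisons on its brightest probe. It was at 2.30, 2.09, 2.08 and 2.24 at 24 h, at 1.93, 1.94, 2.31 and 1.71 at 48 h and at 2.44, 1.75, 2.05 and 2.09 at 168 h in vehicle hearts. The IGF1 hearts had 1.81, 2.33, 2.00 and 2.07, then 2.09, 2.20, 2.52 and 2.31, then 2.30, 1.87, 2.05 and 2.00. All 6 groups overlapped, and in the order of their means, from IGF1 at 48 h (2.28 ± 0.18, SD, n = 4) to vehicle at 48 h (1.97 ± 0.25), the gap between neighbours was below the larger of their SDs. A dimmer probe for another Pdgfra transcript, also well above background on 24 arrays, gave a log2 rise of 0.50 ± 0.14 in IGF1 hearts from 24 to 48 h (adjusted p over probes = 0.0111), where the brighter probe gave 0.23 ± 0.14, so the probes disagree on that call.

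Between the steps, 6 of the 10 genes rose from 24 to 48 h in vehicle hearts (11.6% of all genes rose and 11.1% fell, 22.7% together) and 8 rose from 48 to 168 h (25.8% of all genes rose and 27.6% fell, 53.3% together). None of the 10 fell in either step. The 48 h arrays lay wholly above the 24 h arrays for 6 genes (11.5% of all genes) and the 168 h arrays above the 48 h arrays for 8 (20.1%). The medians of the members were 0.65 and 1.26, against -0.02 and 0.02 for all genes. These comparisons share arrays, so the counts are not separate observations. Within the slides that held both times, 9 of the 10 genes were higher at 48 than at 24 h on all 3 slides. The 1 slide shared by 48 and 168 h, slide 4, held 1 vehicle array of each time and gave positive differences for all 10. Dpt (2.22 against 1.90 in the fit), Pdgfra, Scara5 and Cd248 differed by more than in the fit. Pi16 (1.52 against 2.10), Tcf21 (0.69 against 1.49), Gsn, Abca8a, Mgp and Smoc2 differed by less.

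**Figure D2:**
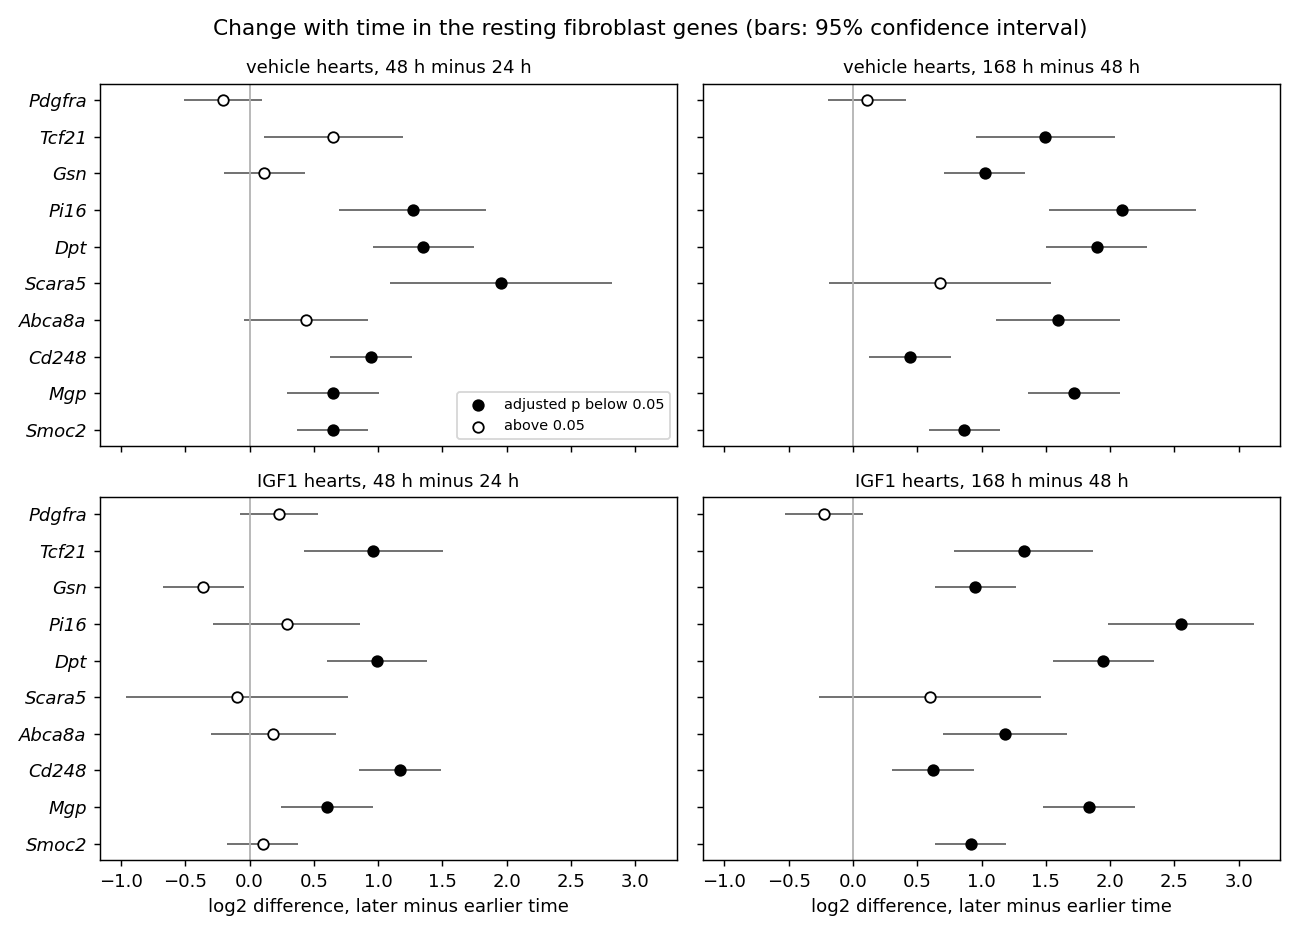
Log2 difference between consecutive times (x axis) of the 10 genes (y axis), in vehicle hearts (top) and IGF1 hearts (bottom), with bars for the 95% confidence interval of the fit and filled points for adjusted p below 0.05. In vehicle hearts 6 and 8 points are filled, in IGF1 hearts 4 and 8, all of them to the right of 0.

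In IGF1 hearts the same steps were taken by 4, 8 and, over the whole interval, 8 of the 10 genes. From 24 to 48 h Cd248 rose by 1.17 ± 0.15 (adjusted p = 8.05e-06), Dpt by 0.99 ± 0.19 (adjusted p = 0.000394), Tcf21 by 0.96 ± 0.26 (adjusted p = 0.00671) and Mgp by 0.60 ± 0.17 (adjusted p = 0.00939). These 4 are the genes whose 48 h arrays all lay above the 24 h arrays (16.7% of all genes were so separated, 17.2% rose and 19.3% fell, 36.5% together). The median of the members was 0.26, against -0.06 for all genes. Scara5 (-0.10 ± 0.41), Smoc2 (0.10 ± 0.13) and Pi16 (0.29 ± 0.27), which rose in vehicle hearts over these hours, did not pass the test here; whether the course differs between treatments is the test given further on. Gsn had a difference of -0.36 ± 0.15 (adjusted p = 0.0694), and it passed the test as lower without IGF1 replicate 4 of 24 h (-0.49), with median scaling and with the authors' value table. The second Gsn probe gave -0.11 ± 0.19 (adjusted p over probes = 0.717). Without IGF1 replicate 1 of 24 h, Pi16 rose over these hours (0.65, adjusted p = 0.0229) and Scara5 rose from 24 to 168 h (0.93, adjusted p = 0.0434, against 0.50 and 0.318 with that array).

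From 48 to 168 h in IGF1 hearts all genes but Pdgfra and Scara5 rose (23.8% of all genes rose and 25.4% fell, 49.1% together; 8 members and 25.1% of all genes were fully separated), with a median of 1.07 against 0.03 for all genes. Pi16 gained most, 2.55 ± 0.27 (adjusted p = 2.55e-07), from 3.09, 3.04, 2.95 and 2.65 to 5.69, 5.28, 5.72 and 5.24. Dpt gained 1.95 ± 0.19 (adjusted p = 7.08e-08) and Mgp 1.84 ± 0.17 (adjusted p = 4.85e-08). No slide held IGF1 arrays of both times, so slide and time cannot be told apart within slides for these rises; with the slide as a fixed block in the fit of all groups, the difference of Abca8a was 0.55 in place of 1.18 and did not pass the test. Over the whole interval from 24 to 168 h the same 8 genes rose in IGF1 hearts (26.2% of all genes rose and 31.9% fell, 58.2% together; 8 members and 23.4% of all genes were fully separated), led by Dpt (7.68-fold), Pi16 (7.16-fold) and Mgp (5.44-fold).

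The second question is what IGF1 changed at each time. At 24 h, 3 of the 10 genes were higher in IGF1 hearts and 0 lower, where 8.25% of all genes were higher and 8.08% lower, 16.3% together. The 3 were Scara5 (4.52-fold), Smoc2 (1.44-fold) and Gsn (1.42-fold). The median of the members was 0.41, against -0.00 for all genes, and the other 7 had log2 differences between -0.14 and 0.47. Dpt (0.47, adjusted p = 0.0911), Abca8a (0.45, adjusted p = 0.194) and Pi16 (0.37, adjusted p = 0.379) had positive differences that did not pass the test, and Pdgfra, Cd248, Tcf21 and Mgp had differences between -0.14 and -0.03.

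The Scara5 difference was the largest of the 10. Against the vehicle levels of -4.46, -5.17, -5.30 and -3.82, the IGF1 arrays read -1.22, -2.27, -2.81 and -3.73, and all 4 were well above background where 1 of the 4 vehicle arrays was. Every IGF1 array lay above every vehicle array, a separation that 9.32% of all genes showed in this direction, but the lowest IGF1 array and the highest vehicle array were close. The log2 difference was 2.18 ± 0.41 (95% confidence interval 1.31 to 3.04, adjusted p = 0.00264). Scara5 in IGF1 hearts at 24 h, with a mean of -2.51 ± 1.05 (SD, n = 4), was next in order to vehicle at 168 h and IGF1 at 48 h, with gaps below the larger SD. The second Scara5 probe, made for another transcript accession, was well above background on 0 arrays at 24 h and gave a difference of 0.61 ± 0.45 (adjusted p over probes = 0.444). With normexp background correction the difference was 0.95 and with the mean of both probes 1.39, and both passed the test.

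Smoc2 levels at 24 h were 3.43, 2.81, 2.85 and 3.12 with vehicle and 3.78, 3.72, 3.41 and 3.42 with IGF1. The groups overlapped by 1 vehicle array. The difference was 0.53 ± 0.13 (95% confidence interval 0.25 to 0.80, adjusted p = 0.0114), and the other Smoc2 probe gave 0.34 ± 0.16 (adjusted p over probes = 0.218). Gsn levels were 5.42, 4.95, 5.01 and 5.50 with vehicle and 6.08, 5.83, 5.67 and 5.32 with IGF1. Here IGF1 replicate 4 lay below 2 of the vehicle arrays, and the difference was 0.51 ± 0.15 (95% confidence interval 0.19 to 0.82, adjusted p = 0.0284); the second Gsn probe gave 0.55 ± 0.19 (adjusted p over probes = 0.0754).

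Within slides, each holding 1 array of each treatment, Scara5 was higher with IGF1 on all 4, by 3.24, 2.89, 2.49 and 0.08 on slides 1 to 4. Slide 4 gave the smallest difference for this gene by far. On slides 1, 2 and 3, 6, 9 and 9 of the 10 genes were higher with IGF1, and on slide 4, 3 were (Dpt, Scara5 and Smoc2). Without IGF1 replicate 4, which is on that slide, Scara5 differed by 2.58 (adjusted p = 0.00113) and Dpt passed the test at 0.60 (adjusted p = 0.0385).

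The calls at 24 h depended on which arrays were fitted, least so for Scara5. Fitted on the 8 arrays of 24 h alone, 0 of the 10 genes passed the test, with adjusted p of 0.0526 for Scara5, 0.0891 for Smoc2 and 0.143 for Gsn, and 872 in place of 2591 genes passed in all. Without vehicle replicate 2, only Scara5 did. Leaving out each array in turn, Scara5 kept its call in 8 of 8 fits and Smoc2 in 7, and Gsn lost it in 4, namely without vehicle replicates 2 and 3 (0.42 and 0.44) and without IGF1 replicates 1 and 2 (0.39 and 0.47). Gsn also lost its call without the filter on dim probes (adjusted p = 0.0506). With the slide as a fixed block in the fit of all arrays, Scara5, Smoc2 and Gsn kept their calls (adjusted p = 0.00236, 0.00215 and 0.016).

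**Figure D3:**
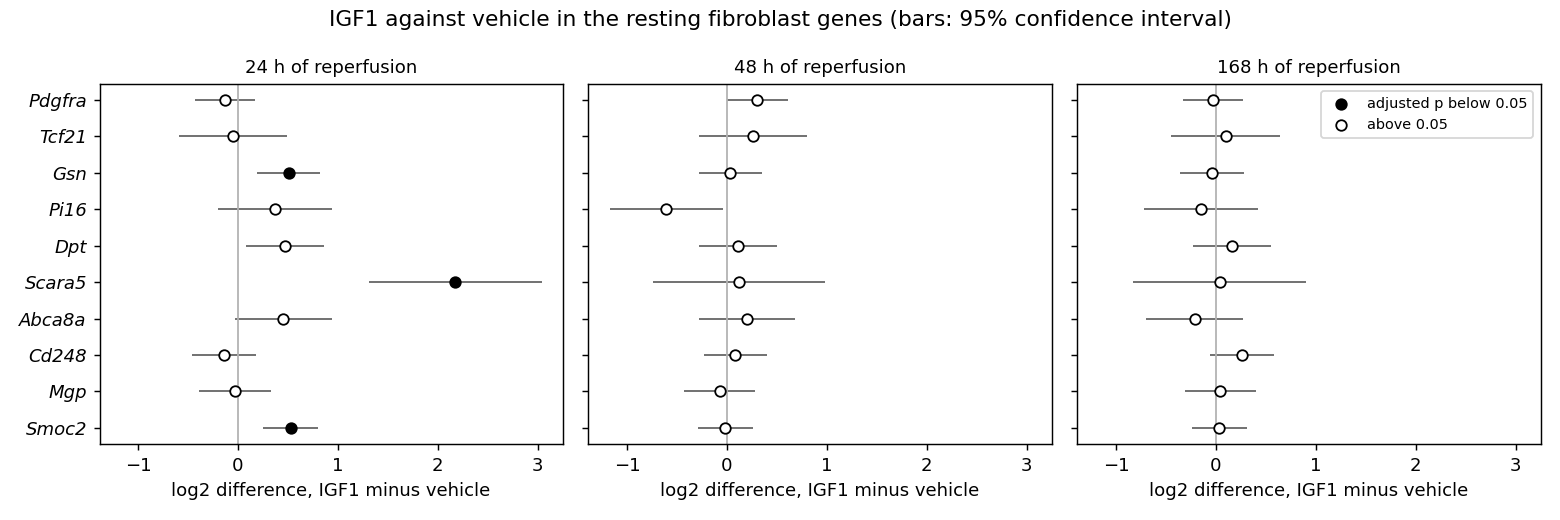
Log2 difference of IGF1 minus vehicle (x axis) for the 10 genes (y axis) at 24, 48 and 168 h, with bars for the 95% confidence interval of the fit; filled points have an adjusted p below 0.05. The filled points are Scara5 (2.18), Smoc2 (0.53) and Gsn (0.51) at 24 h, and at 48 and 168 h all points are open.

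**Figure D4:**
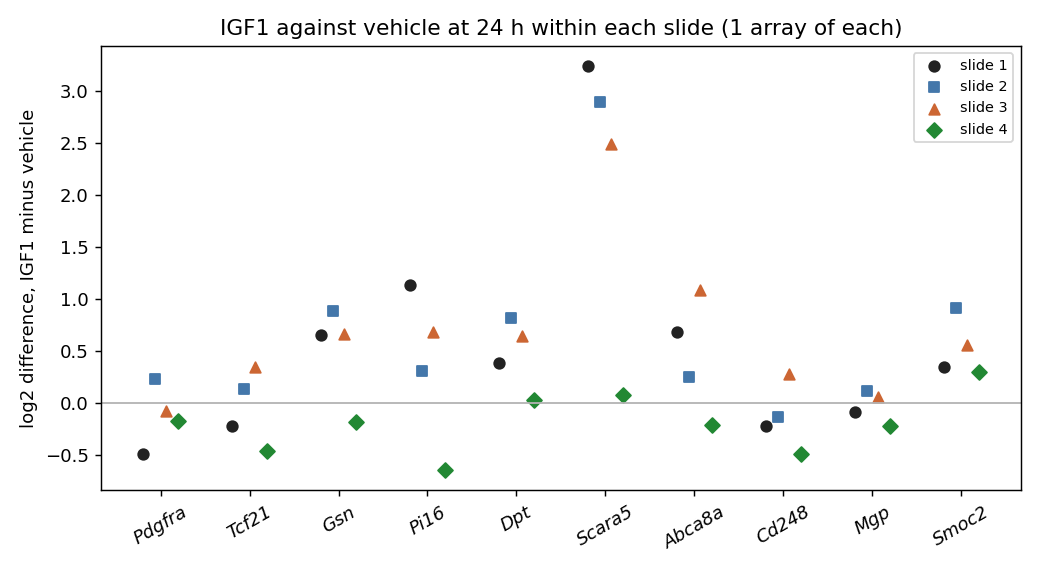
Log2 difference of IGF1 minus vehicle at 24 h (y axis) for each of the 10 genes (x axis) within each of the 4 slides, where each point is 1 IGF1 array minus 1 vehicle array. Scara5 lies above 0 on all 4 slides but at 0.08 on slide 4 (diamonds), where 7 of the 10 genes lie below 0.

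Markers of other cell types also differed at 24 h, where 8.25% of all genes were higher with IGF1 and 8.08% lower. The mean level of the 9 cardiomyocyte markers at 24 h ranged from 6.37 to 6.79 on the vehicle arrays and from 6.79 to 7.14 on the IGF1 arrays, and 5 of the 9 rose. That of the 10 myeloid leukocyte markers ranged from 3.67 to 3.87 with vehicle and from 3.43 to 3.55 with IGF1, and 5 of the 10 fell. The 5 proliferation markers all fell with IGF1, with a median of -1.15. The mean level of these 5 ranged from -1.28 to 0.60 with vehicle and from -1.51 to -0.94 with IGF1, so the groups overlapped. The part of all these markers in the differences of the fibroblast genes was not tested. Of the epicardial and mesothelial markers, 10 of 12 were measured (Muc16 and Bnc1 were not kept), 4 of the 10 were well above background on all 24 arrays, and 0 changed at 24 h (16.3% of all genes did); their mean ranged from -3.44 to -2.51 with vehicle and from -3.18 to -2.12 with IGF1. For endothelial markers 0 of 10 changed.

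At 48 h, 0 of the 10 genes passed the test (2 genes, or 0.0126% of all, did, both lower), and 2 had an unadjusted p below 0.05, as had 9.01% of all genes. These 2 were Pi16 and Pdgfra. Pi16 was at 3.47, 3.25, 3.71 and 3.71 with vehicle and at 3.09, 3.04, 2.95 and 2.65 with IGF1, so that every IGF1 array lay below every vehicle array, a separation shown by 3.21% of all genes. The difference was -0.60 ± 0.27 (95% confidence interval -1.17 to -0.03, adjusted p = 0.529). Pdgfra differed by 0.31 ± 0.14 (adjusted p = 0.550) with overlapping groups, and the other 8 lay between -0.07 and 0.26.

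At 168 h, 0 of the 10 genes and 0 of all genes passed limma's test (0% of all genes), and 0 of the 10 had an unadjusted p below 0.05, as had 4.01% of all genes. The differences lay between -0.21 (Abca8a) and 0.26 (Cd248). Dpt was at 3.13, 3.09, 3.11 and 3.18 with vehicle and at 3.19, 3.44, 3.30 and 3.24 with IGF1. These do not overlap (1.32% of all genes were so separated), but the difference was 0.16 ± 0.19 on the spread of the whole fit (adjusted p = 1.00). The widest interval was that of Scara5, -0.82 to 0.90, and the narrowest that of Smoc2, -0.24 to 0.31, which is the precision that 4 arrays a group gave.

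Whether the effect of IGF1 differed between the 3 times was asked with an F-test. It was passed by 1 of the 10 genes, Scara5, and by 5.65% of all genes. The IGF1 effect on Scara5 at 48 h minus that at 24 h was -2.05 ± 0.59 on the log2 scale (adjusted p of the F-test = 0.0424), and the effect itself was 0.12 ± 0.41 at 48 h and 0.04 ± 0.41 at 168 h. This call was lost in 18 of 24 fits that left out 1 array and with the replicate number as a block (adjusted p = 0.0523), with median scaling (0.0516), without the filter on dim probes (0.0766), with the mean of both probes (0.212) and with normexp (0.197). Among the fits that lost it, the adjusted p of the F-test was 0.101 without IGF1 replicate 1 of 24 h. Without vehicle replicates 1 and 3 of 24 h it was 0.0666 and 0.0905. Smoc2, with an adjusted p of 0.118, passed the F-test with the slide as a fixed block (0.0336) and without vehicle replicate 1 of 24 h (0.0463). The other 8 had adjusted p between 0.191 and 0.947.

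The order of group means showed how the genes split. In 8 genes, all but Pdgfra and Scara5, both 168 h groups ranked above the other 4 and were separated from them by more than the larger SD. The share of all genes with this order was not computed, so the count is a description only. By the other measure, all 168 h arrays above all 24 h arrays, 24.6% of all genes were separated in vehicle hearts and 23.4% in IGF1 hearts. In Scara5 the first 5 groups, from IGF1 at 168 h (-2.01 ± 0.39) down to vehicle at 48 h (-2.73 ± 0.42), had gaps below the larger SD, and vehicle at 24 h (-4.69 ± 0.69) lay apart. In Gsn the third place went to IGF1 at 24 h (5.73 ± 0.32), above both 48 h groups. Smoc2 at 24 h with IGF1 (3.58 ± 0.20) was next in order to IGF1 at 48 h (3.68 ± 0.12), with a gap below the larger SD, whereas with vehicle it was lower (3.05 ± 0.29).

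Across the 24 arrays the members moved together apart from Pdgfra. The median Pearson r over the 45 pairs was 0.82, with a range from -0.25 to 0.97, and 36 pairs were positive. The points share the 3 times, and within groups the median was 0.42 with 41 pairs positive. Each gene against the mean of the other 9 gave r between 0.65 (Scara5) and 0.97 (Smoc2), with -0.12 for Pdgfra. Of all other genes, those closest to the mean profile of the members were Entpd2 (r = 0.991), Olfml1 (0.990), Islr (0.985), Gas1 (0.984) and Fcgrt (0.984) over 24 arrays; Entpd2 and Islr belong to the list of other resting fibroblast genes below. These correlations describe the arrays and carry no test.

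A wider list of 20 resting fibroblast genes, among them decorin, lumican and other small matrix proteins, also rose in vehicle hearts. All 20 rose from 24 to 168 h, with a median of 2.25, where 29.2% of all genes rose and 31% fell. For 1 of them, Lamc3, named after its values were seen, 0 vehicle arrays at 24 h and 3 at 168 h were well above background. It was kept through its 168 h arrays, so its rise was measured from background. Lum (lumican, a collagen-binding proteoglycan) rose by 2.78 ± 0.13 (adjusted p = 2.43e-12). Igfbp6, which binds insulin-like growth factors, rose by 2.62 ± 0.13 (adjusted p = 4.45e-12). In IGF1 hearts 17 of the 20 rose, with a median of 2.03 (26.2% of all genes rose and 31.9% fell). At 24 h, 5 of the 20 were higher with IGF1 and 0 lower, with a median of 0.31 (8.25% of all genes were higher and 8.08% lower). Tnxb, the matrix glycoprotein tenascin-X, was higher by 0.90 ± 0.22 (adjusted p = 0.00999) and C7, a complement component, by 0.76 ± 0.20 (adjusted p = 0.0139); the other 3, named after their values were seen, were Clec3b (1.39), Entpd2 (0.71) and Ogn (0.61). At 48 and 168 h 0 of the 20 differed between treatments.

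Genes of activated fibroblasts also rose in vehicle hearts from 24 to 168 h, over which 29.2% of all genes rose and 31% fell. Of 20, 17 rose and 2 fell from 24 to 168 h in vehicle hearts, with a median of 2.96; Col12a1, a collagen that links fibrils, rose by 3.95 ± 0.16 (adjusted p = 3.61e-13) and Cthrc1, a secreted protein of scar fibroblasts, by 5.18 ± 0.23 (adjusted p = 7.18e-13). The 2 that fell, Tnc (-0.84) and Ckap4 (-0.37), were named after their values were seen. At 24 h, 0 of the 20 were higher with IGF1 and 3 lower, with a median of -0.29. Of all genes, 8.25% were higher and 8.08% lower. Fn1 (fibronectin) was lower by 0.80 on the log2 scale (-0.80 ± 0.15, adjusted p = 0.0025) and Ltbp2, a microfibril protein, by 0.63 (-0.63 ± 0.20, adjusted p = 0.0385); Ckap4 (-0.41) was the third, named after its value was seen. In the same hearts, then, the 10 resting genes had 3 higher and 0 lower; the difference between the lists was not tested.

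The other genes of the platelet-derived growth factor system, 4 ligands and the beta receptor Pdgfrb, were all measured. In vehicle hearts from 24 to 168 h, Pdgfc rose by 1.04 ± 0.17 (adjusted p = 1.74e-05), and Pdgfa fell by 0.68 (-0.68 ± 0.08, adjusted p = 1.77e-07). The remaining 3, named after their values were seen, also changed: Pdgfd (0.68) and Pdgfrb (0.59) rose and Pdgfb (-0.49) fell. Of all genes, 60.2% changed over this interval. At 24 h, 1 of the 5 was higher with IGF1 and 0 lower: Pdgfd, by 0.61 ± 0.15 (adjusted p = 0.00872). Of all genes, 8.25% were higher and 8.08% lower. Levels of the receptor Pdgfra over the same hours were those given above, with no call.

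**Figure D5:**
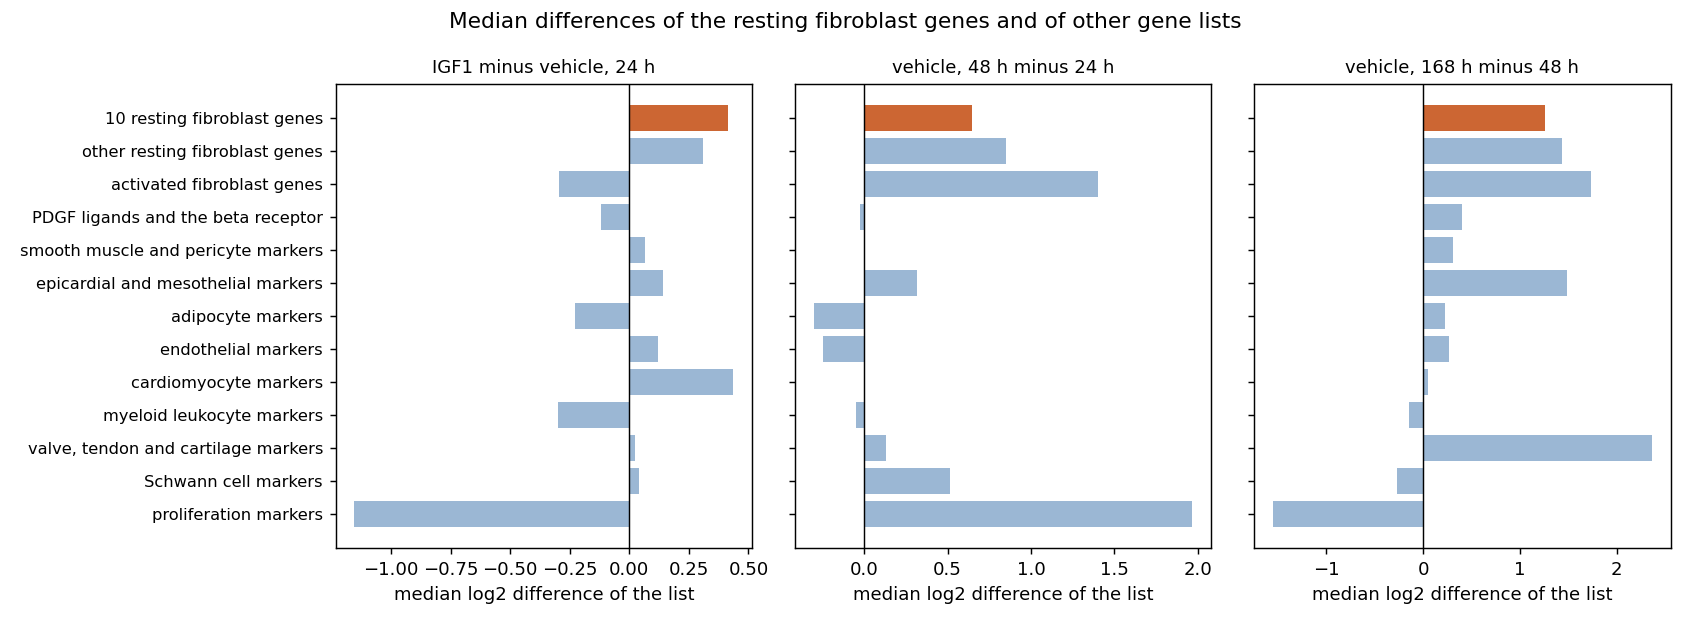
Median log2 difference (x axis) of the 10 resting fibroblast genes (top bar) and of 12 other gene lists (y axis) in 3 comparisons: IGF1 minus vehicle at 24 h, and 48 minus 24 h and 168 minus 48 h in vehicle hearts. Bars start at 0; at 24 h the resting genes (0.41) and the activated genes (-0.29) lie on opposite sides of 0, and from 48 to 168 h in vehicle hearts both lie above it (1.26 and 1.73).

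Markers of other cell types that share some of these transcripts are given beside the rise with time. From 24 to 168 h in vehicle hearts, 29.2% of all genes rose and 31% fell. Of the smooth muscle and pericyte markers, 4 of 8 rose and 0 fell, with a median of 0.37. Their mean level ranged from 2.05 to 2.36 at 24 h and from 2.40 to 2.65 at 168 h. Of the epicardial and mesothelial markers 7 of 10 rose and 1 fell (median 1.27), with a mean level of -3.44 to -2.51 at 24 h and of -2.74 to -0.49 at 168 h. Of the valve, tendon and cartilage markers 5 of 6 rose and 1 fell (median 2.94), of the Schwann cell markers 2 of 5 rose and 2 fell (median 0.10), and of the adipocyte markers measured 0 of 5 rose and 1 fell (median -0.17; Adipoq, Plin1 and Pck1 were not kept). Of the myeloid markers 2 of 10 rose and 5 fell, of the endothelial markers 4 of 10 rose and 4 fell, and of the cardiomyocyte markers 3 of 9 rose and 0 fell (median 0.01). Some of these markers, named after their values were seen, were measured from background at 24 h. Of the tendon list, Tnmd, Chad and Fmod were well above background on 0 vehicle arrays at 24 h and 4 at 168 h. Of the epicardial list, Upk3b and Lrrn4 were so on 0 and 3. The counts and medians of both lists include them. The part of these cell types in the rise of the fibroblast genes was not tested.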

How the data were processed

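Scanner output came from Agilent Feature Extraction, version 12.0.3.2, according to its headers. It holds, per the file headers, the Cy3 intensity of each spot on a linear scale, corrected for background within the array. The authors also deposited a table of log2 values for 33957 probes, which was used as an alternative; it followed the log2 values computed here with a residual SD of at most 0.0157 after removal of 1 offset per probe, and which arrays set that offset is not given in the sources used here. Control spots and outlier spots (53 to 130 of 59305 per array) were dropped, and 0 were saturated. From the log2 processed signal of each probe, that of the array's 75th percentile (534 to 897 on the linear scale) was subtracted. Probes well above background on 4 or more of 24 arrays were kept, and each gene was read from its brightest one. Accessions without versions were matched to RefSeq (GRCm38.p6), which gave 1 symbol to 33767 of 56605 probes (59.7%), none to 22838 and several to 0.

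One limma model (version 3.58.1, R 4.3.3) held a mean for each of the 6 groups and 18 residual degrees of freedom. Moderated two-sided tests were adjusted by Benjamini-Hochberg over 15875 genes, with a threshold of 0.05. The model was tested on simulated data, where it recovered 80% of genes changed 2-fold in the 24 h comparison. Errors are SE for differences and SD over 4 arrays for means. Same-numbered IGF1 and vehicle arrays deviated together at 168 h (correlations of 0.19 to 0.50). Each of these pairs also shared a slide, so the correlations do not show whether the numbers pair the samples. Alternatives changed the background correction, scaling, filter, probe rule, blocks, weights and arrays used.

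The members, gene lists and alternatives were chosen with earlier results of these data known. All members are reported; of each other list, up to 2 genes with the smallest p in a comparison may be named, as may the 5 genes most like the members' mean z-score.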

Additional observations from a re-analysis of the deposited data

Results flagged for a closer look

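The level of Dpt in IGF1 replicate 3 at 48 h was 1.57, whereas the other 3 arrays of the group lay between 1.25 and 1.29; the gap to the nearest took 0.893 of the range, above Dixon's critical value for 4 samples. Of 60 groups of arrays screened in this way, 1 was so marked, and chance marks about 1 in 20.

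The effect of IGF1 on Scara5 differed between times (F-test, limma, adjusted p = 0.0424): 2.18 at 24 h, 0.12 at 48 h and 0.04 at 168 h on the log2 scale, with IGF1 higher on all 4 slides at 24 h, though by 0.08 on slide 4. At 24 h, 3 of 4 vehicle arrays were not well above background for this gene, and the call was lost in 18 of 24 fits that left out 1 array.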

How the results depend on the processing

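Over 100 member results and 2150 alternatives, 2042 kept their direction and their side of the threshold, 36 lost a call, 15 gained one, 0 called values changed sign and 57 uncalled ones did. Median scaling shifted the median of all genes by up to 0.13 and quantile normalization by up to 0.04. At 24 h, the 3 members higher with IGF1 became 0 when only the arrays compared were fitted, and 1 to 4 leaving out single arrays (1 without vehicle replicate 2); over all genes the count of 2591 ranged from 872 to 3452. The F-test's 1 member became 0 with the replicate block, without the filter, with the mean of probes, with median scaling and with normexp, 2 with the slide as a fixed block, and 0 to 1 leaving out single arrays; over all genes 897 ranged from 366 to 1820. With the replicate block the 24 h count stayed 3 and that of vehicle hearts from 24 to 48 h became 7 (Tcf21 added); same-numbered vehicle arrays of 24 and 48 h correlated at 0.12, 0.19, 0.05 and 0.38, and same-numbered IGF1 and vehicle arrays at -0.05 to 0.13 at 24 h and -0.01 to 0.11 at 48 h, so not every pair passed 0.1, and apart from the F-test the block changed no other member count. Counts over all genes also moved by over 1.5 times for vehicle hearts from 24 to 48 h (2267 without 1 array, against 3611) and for IGF1 against vehicle at 48 h (2, from 0 to 46) and 168 h (0, up to 14). Alternatives were run for members only; the cause of a lost call was not tested. Signal over background limits Scara5 at 24 h, where 1 vehicle array was well above it.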
